A study of Mus musculus with 16 samples.

Results

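Small nucleolar RNA (snoRNA) and small Cajal-body RNA (scaRNA) genes were examined in sorted lymph node lymphatic endothelial cells (LECs). The genes were chosen by name and level: a symbol beginning with Snora, Snord or Scarna, and at least 1 TPM (reads scaled to gene length and library total) in at least 4 of 16 libraries. This gave 54 genes of 24946 in the tables, 22 Snora, 31 Snord and 1 Scarna, out of 119 genes with such a name. The other 65 included 25 that were listed at 0 in all libraries. The LECs were CD45-, CD31+ and Podoplanin+ cells from popliteal and brachial lymph nodes. Stab1-/- mice, which lack Clever-1 (KO), were set against WT mice. Both genotypes were studied 1 day after ovalbumin in adjuvant was injected into the footpad (inflamed) and without injection (steady state). Each of the 4 groups had 4 libraries, and each library pooled cells of 2 mice. The labels name complete Freund's adjuvant and strain C57BL/6, whereas the paper names the incomplete adjuvant and a mixed C57BL/6N and 129SvJ background, with both sexes at 6 to 12 weeks of age. The knockout is present in every cell of the mouse, so LECs and their surroundings both lacked Clever-1.

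snoRNAs are short RNAs that stay in the nucleus and guide enzymes to other RNAs by base pairing. Box C/D snoRNAs (Snord) carry the methyltransferase fibrillarin and direct 2'-O-methylation, and H/ACA snoRNAs (Snora) carry dyskerin and direct the conversion of uridine into pseudouridine, mostly in ribosomal RNA. scaRNAs do the same for spliceosomal RNAs in Cajal bodies, and a few snoRNAs, such as U3 and U8 (Snord118), are needed to cut ribosomal RNA precursors. Most vertebrate snoRNAs are released from introns of host genes, many of which encode ribosomal proteins or have no known protein product. Mature snoRNAs carry no long poly(A) tail, whereas the cDNA kit used here (SMART-Seq v4) is primed on poly(A). The amount of mature snoRNA and of unspliced or retained host RNA in a value can therefore not be told apart in these libraries.

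The sequences shown are those of 8 members that passed or were on-off in a comparison, and of Snora28, the third highest member, as the GENCODE M21 transcripts on GRCm38 give them, 5′ to 3′. Capitals mark the C box (TGATGA, searched in the first 25 bases) and the D box (CTGA, in the last 25 bases) of Snord genes, and the last ACA that is followed by at least 3 bases within the last 25 bases of Snora genes.

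Snord118: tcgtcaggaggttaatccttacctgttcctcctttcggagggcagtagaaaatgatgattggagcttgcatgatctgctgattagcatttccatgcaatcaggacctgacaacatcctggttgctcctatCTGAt
Snord67: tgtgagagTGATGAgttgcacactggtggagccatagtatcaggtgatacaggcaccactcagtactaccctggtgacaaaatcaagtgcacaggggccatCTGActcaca
Snord49b: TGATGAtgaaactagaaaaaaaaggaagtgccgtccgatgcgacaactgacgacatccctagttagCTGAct
Snora81: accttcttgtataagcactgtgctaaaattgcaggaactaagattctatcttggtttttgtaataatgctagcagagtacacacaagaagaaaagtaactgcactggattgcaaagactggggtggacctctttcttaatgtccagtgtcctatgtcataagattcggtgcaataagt
Snora23: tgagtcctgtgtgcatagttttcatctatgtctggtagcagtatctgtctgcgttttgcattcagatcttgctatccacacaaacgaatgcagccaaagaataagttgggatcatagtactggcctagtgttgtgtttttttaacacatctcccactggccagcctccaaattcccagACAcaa
Snora16a: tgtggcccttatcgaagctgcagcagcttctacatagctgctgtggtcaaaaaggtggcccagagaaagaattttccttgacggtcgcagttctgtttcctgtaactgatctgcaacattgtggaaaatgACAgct
Snora21: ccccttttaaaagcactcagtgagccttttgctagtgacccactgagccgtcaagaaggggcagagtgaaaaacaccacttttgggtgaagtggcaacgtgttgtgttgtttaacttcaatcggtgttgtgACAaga
Snora7a: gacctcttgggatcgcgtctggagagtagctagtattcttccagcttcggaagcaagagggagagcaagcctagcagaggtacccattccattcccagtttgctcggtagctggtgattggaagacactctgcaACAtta
Snora28: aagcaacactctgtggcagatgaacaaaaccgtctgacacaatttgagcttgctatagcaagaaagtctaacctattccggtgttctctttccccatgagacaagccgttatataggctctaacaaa

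Searched on the transcript's own strand, the D box letters were in 31 of 31 Snord genes and the C box letters in 23, and 23 held both. Of 141672 GENCODE transcripts of at least 50 bases, 11.7% held the D box letters, 0.865% the C box letters and 0.305% both in the same windows. The ACA letters were in 20 of 22 Snora genes and in Scarna13, against 31.3% of all transcripts. Snora81 and Snora28 were the 2 Snora genes without a match, so their sequences carry no capitals. These are matches of letters only.

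Snord118 lies at chr11:69073427-69073561 on the plus strand, 135 bases long, in no other gene, and 133 bases from Tmem107 on the same strand. Snord104 was the other member with no gene around it on its strand. The other 52 lay within 45 host genes on the same strand, 37 of them in protein-coding and 15 in non-coding hosts, and 21 in the genes of 18 ribosomal proteins. Snora81 lies at chr16:23110756-23110933 in Eif4a2, which encodes an RNA helicase of translation initiation. Snora23 lies at chr7:110046364-110046547 in an intron of Ipo7, which encodes a nuclear import receptor, and antisense to 1600010M07Rik. Snora16a lies in Snhg12, Snora21 at chr11:97781639-97781775 in an intron of Rpl23, Snora7a in Rpl32, Snora28 in Eif5 and Snord67 at chr2:91596070-91596180 in Ckap5. Of the 52 genes, 23 were wholly intronic, 27 lay within an exon of at least 1 GENCODE transcript of the host, retained introns included, and 2 were partly exonic. For 36 members at least one stretch of 50 bases, the read length, also occurred in a transcript of another gene, and for 27 every such stretch did. Among them were Snora81, Snora16a, Snora28, Snora7a, Snora70 and Snora26, whose reads the authors' counting could have divided with the host. Snora23, Snord49b and Snora78 shared no such stretch, Snora21 shared 2.27%, Snord118 17.4% and Snord67 71.0%. The copies Snord35a and Snord35b were 73.9% identical, Snord49a and Snord49b 70.7%, and Snord15a and Snord15b 65.6%, and none of these copies shared a stretch of 50 bases with its partner.

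The levels of these genes were set by a few members. Snord118 had the highest mean over 16 libraries, 421 TPM, followed by Snora81 with 329 TPM and Snora28 with 169.7 TPM. Snord104 averaged 79.0 TPM, Snora16a 67.03 TPM and Snora68 60.8 TPM. The summed level of the 54 genes was 1387 ± 177 TPM in inflamed KO, 1486 ± 349 TPM in inflamed WT, 2619 ± 172 TPM in KO and 2141 ± 385 TPM in WT LECs (SD, n = 4 each). Without inflamed WT replicate 2, the inflamed WT mean was 1326 TPM. Without Snord118 and Snora81 the sums were 1112 ± 158, 1137 ± 118, 1308 ± 222 and 1077 ± 269 TPM in the same order. These 2 genes made up 13.3% to 43.4% of the sum in inflamed and 37.7% to 57.3% in steady state libraries. The single scaRNA, Scarna13, which lies in an intron of Snhg10, averaged 5.56 TPM and was above 0 in 16 of 16 libraries, at 9.05, 7.62, 4.34 and 9.13 TPM in inflamed KO, 3.59, 7.84, 9.23 and 4.46 TPM in inflamed WT, 1.06, 4.22, 5.94 and 4.28 TPM in KO and 10.3, 1.18, 2.92 and 3.83 TPM in WT LECs.

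The values took few distinct levels. In 49 of the 54 genes every value was a whole multiple, within 0.05, of a step that depended on the library and the gene's length class, with Snora34 as the 1 gene on the step of a longer class. The exceptions were Scarna13, Snora24, Snora26, Snord1a and Snord7. For the shortest genes, 53 to 73 bases, 1 step was worth 8.62 TPM in inflamed WT replicate 2 and 39.2 TPM in WT replicate 4, a ratio of 4.54. Whether 1 step is 1 read was not tested, and TPM keep no depth, so the depth behind a value is unknown. Of 513 values above 0 in these 49 genes, 35.1% were 1 step and 53.8% at most 2 steps, and 12 genes ever reached 10 steps. No value of any member lay between 0 and 1 TPM, so the threshold of 1 TPM asked only whether a gene was above 0. The highest value was 162 steps, for Snora81 in KO replicate 1.

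**Figure D1:**
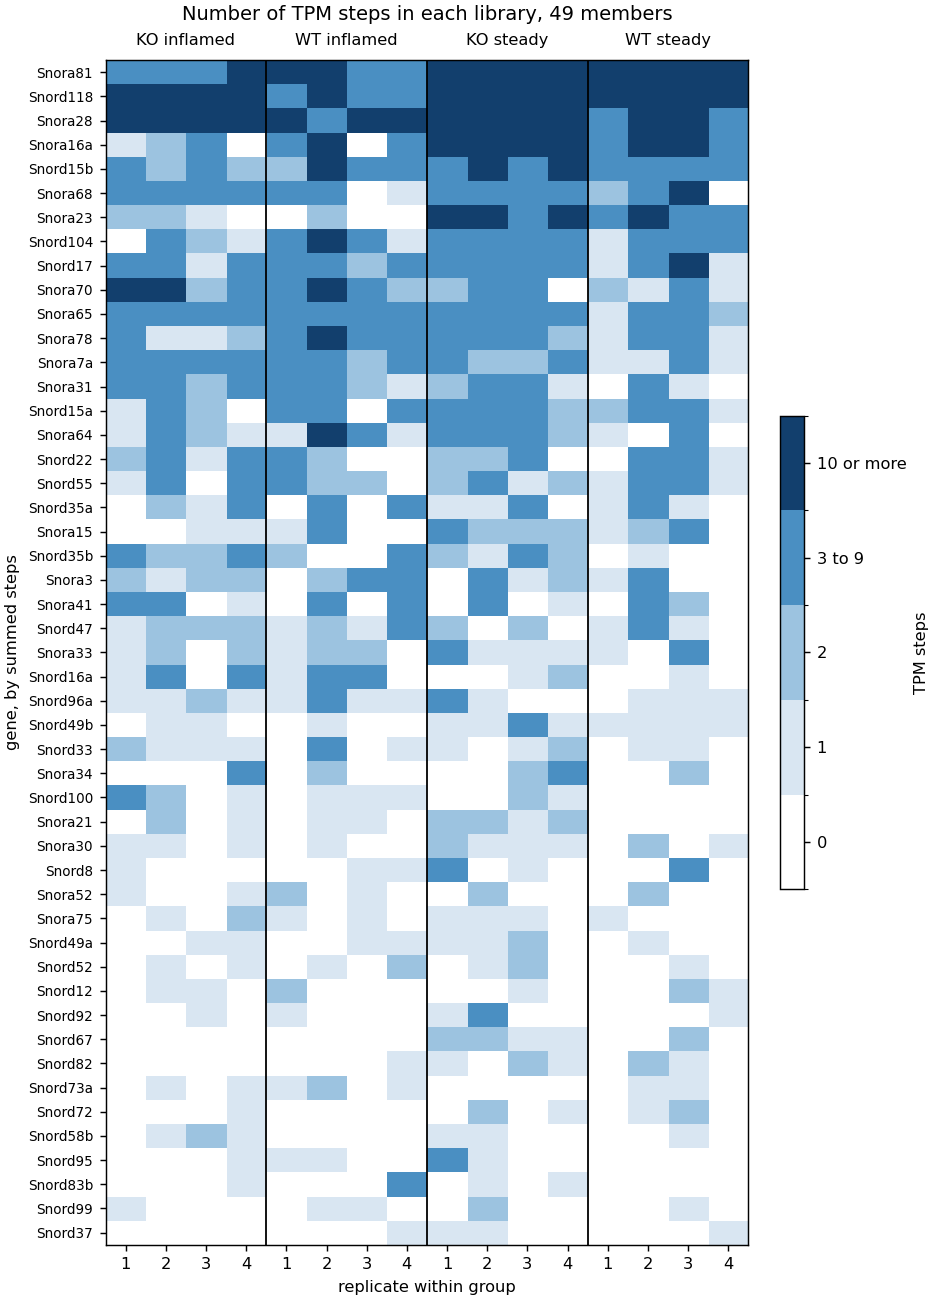
Number of TPM steps (colour) of the 49 members with whole steps (rows, by summed steps) in each of 16 libraries (columns, 4 replicates per group). Snora81, Snord118 and Snora28 fill the darkest rows, and 53.8% of the values above 0 are 1 or 2 steps.

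Between 30 and 41 of the 54 genes were above 0 in the inflamed KO libraries, 28 to 39 in inflamed WT, 36 to 43 in KO and 24 to 39 in WT libraries. The 4 libraries with the largest steps had the fewest members above 0: WT replicate 4 had 24 at a step of 39.2 TPM, WT replicate 1 had 26 at 28.2 TPM, inflamed WT replicate 3 had 28 at 25.4 TPM and inflamed KO replicate 3 had 30 at 23.8 TPM. In all, 305 of 864 values were 0 (35.3%), against 0.967% of the values of the other genes that passed the same filter. Among genes with a mean of 10 to 100 TPM, 21.3% of the members' values and 0.353% of the other genes' values were 0. Only 9 members were above 0 in all 16 libraries, and 19, 16, 25 and 16 were above 0 in 4 of 4 inflamed KO, inflamed WT, KO and WT libraries.

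**Figure D2:**
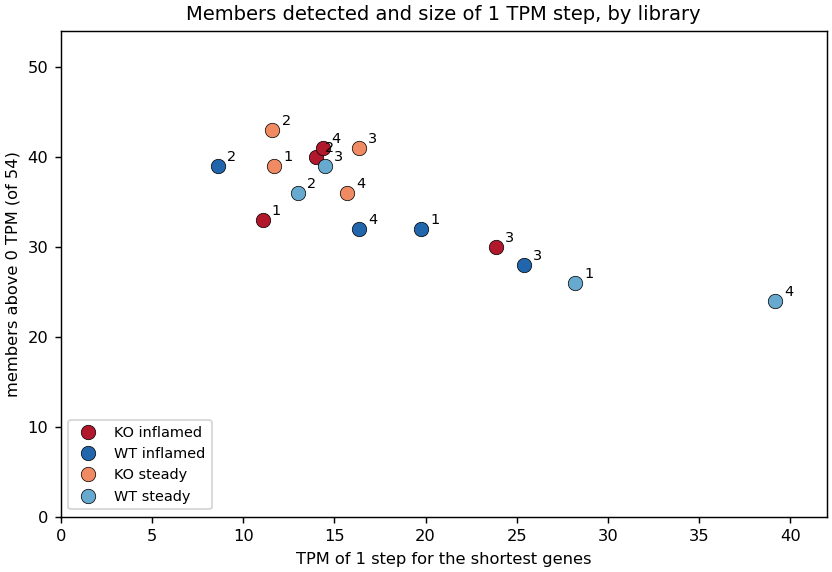
Members above 0 TPM (vertical axis, of 54) against the TPM of 1 step for the shortest genes (horizontal axis) in each library, with the replicate number beside each point and the group as colour. The libraries with the largest steps, WT replicates 4 and 1, had 24 and 26 members above 0.

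The members varied far more between libraries of a group than other genes did. The SD of log2(TPM + 1) within groups, averaged over the 4 groups, had a median of 1.67 over the 54 members and 0.28 over the 12630 other genes. At 1 to 10 TPM the medians were 1.74 and 0.32, at 10 to 100 TPM 1.54 and 0.26, and over 100 TPM, with 3 members, 0.53 and 0.19. Among members with a mean of at least 5 TPM the most even were Snord118 (0.44), Snora65 (0.46), Snora28 (0.53), Snora7a (0.59) and Snord67 (0.64). Snord67 was listed at 0 in every inflamed library, so its SD was 0 in both inflamed groups and its average is low for that reason. In WT LECs it was at 0 in 3 of 4 libraries and at 21.7 TPM in the other. The least even were Snora41 (2.68), Snora24 (2.55), Snord12 (2.54), Snord35a (2.54) and Snord1a (2.36).

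Snora65, an H/ACA snoRNA in Rpl12, had 66.4, 41.9, 89.4 and 64.6 TPM in inflamed KO, 44.5, 51.7, 57.1 and 61.3 TPM in inflamed WT, 70.2, 26.1, 36.7 and 35.3 TPM in KO and 21.2, 38.9, 43.5 and 58.7 TPM in WT LECs. Snora24, in Snhg8, had 38.3, 53.6, 0 and 49.5 TPM, 50.2, 26.2, 63.7 and 40.5 TPM, 0, 57.9, 92.0 and 0 TPM and 0, 30.4, 75.8 and 0 TPM in the same order. Snora65 was present in every library, whereas Snora24 was at 0 in 5 of 16 and above 26 TPM in the others. Snora41, in Eef1b2, had 24.9, 41.9, 0 and 10.8 TPM in inflamed KO, 0, 25.9, 0 and 36.8 TPM in inflamed WT, 0, 26.1, 0 and 11.8 TPM in KO and 0, 48.7, 21.7 and 0 TPM in WT LECs. Snord35a, from the Rpl13a transcript that also holds Snord33, had 0, 20.9, 17.9 and 43.0 TPM, 0, 32.3, 0 and 36.8 TPM, 8.78, 8.70, 48.98 and 0 TPM and 21.2, 48.7, 10.9 and 0 TPM in the same order. Every group of these 2 genes held at least 1 library at 0 and at least 1 above 20 TPM.

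**Figure D3:**
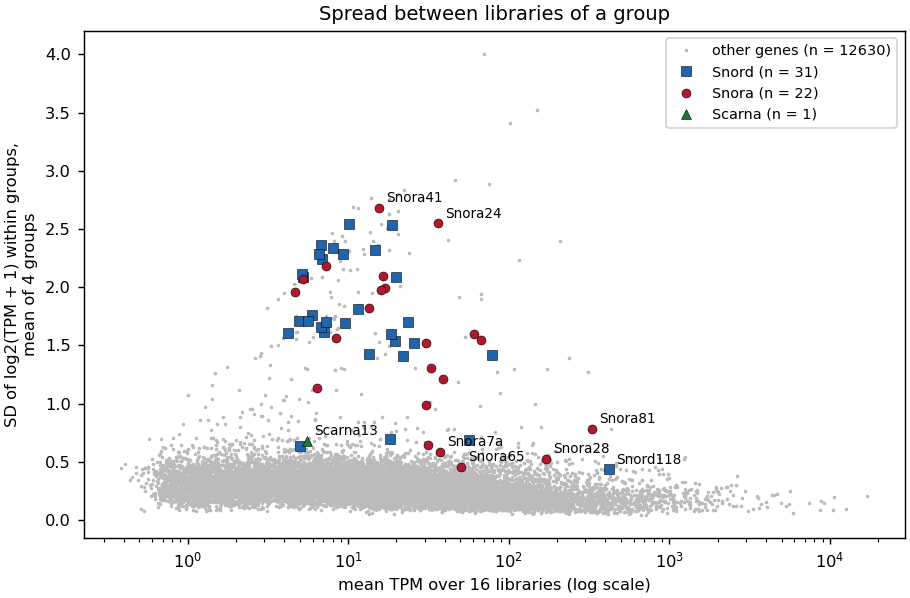
SD of log2(TPM + 1) within groups, averaged over 4 groups (vertical axis), against the mean TPM over 16 libraries (horizontal axis, log scale) for the members (coloured by family) and 12630 other genes (grey). Most members lie above the other genes, with medians of 1.67 and 0.28.

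At the edge of the rule, Snord1a, Snord37 and Snord83b reached 1 TPM in exactly 4 libraries, with means of 6.77, 4.93 and 4.25 TPM. Another 10 genes did so in 3 libraries and were left out, among them Snord4a (4.77 TPM), Snora2b (4.62 TPM), Snord23 (4.31 TPM), Snord65 (3.19 TPM), Scarna2 (3.02 TPM) and Snord38a (2.56 TPM). The mean levels on either side of the threshold overlapped.

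Before the comparisons, the libraries were checked against their labels. Stab1 was at 5.09 to 8.90 TPM in the 8 KO libraries, against 193 to 640 TPM in the 8 WT libraries. The LEC markers Prox1, Pdpn, Flt4, Lyve1, Pecam1, Stab1, Mrc1 and Reln were all measured and summed to 5471 to 6534 TPM in inflamed KO, 2246 to 6263 TPM in inflamed WT, 2362 to 2719 TPM in KO and 2602 to 3265 TPM in WT LECs. Inflamed WT replicate 2 stood apart, with 10903 genes at 1 TPM or more against 11898 to 12133 in the others, and the main results that rest on it are given with and without it. The test was limma on log2(TPM + 1), with Benjamini-Hochberg adjustment over all genes that reached 1 TPM in 4 or more libraries of the 8 compared. To pass, a gene needed an adjusted p no higher than 0.05 and a log2 difference of 1 or more in either direction, and rose or fell is written only of genes that passed. For single genes a two-sided exact permutation test over libraries is given, which cannot go below p = 0.0286 with 4 against 4. In bulk RNA, fewer cells of a type and less RNA per cell cannot be told apart.

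Inflamed KO LECs differed from steady state KO LECs in 10 of the 40 members tested. Snord118, Snora81, Snora23, Snora16a, Snora15, Snora26, Snora78 and Snord67 fell and Snora7a and Snora70 rose, as limma called them. Lower members were 8 of 40, with 3.06% of all 12161 genes tested called lower, and higher members were 2 of 40, with 6.41% of all genes called higher. The median log2 difference was -0.40 over the members and 0.24 over all genes. The shift over all genes is 0.00 after rescaling by the median ratio, where the members' median was -0.52, 12 members fell and 0 rose. Of all genes, 66.9% had a positive difference before this rescaling and 50.3% after it. The shares of 3.06% and 6.41% are those without rescaling, and the shares called with it are not given here. All 8 genes that fell passed under that scaling too, and Snora7a and Snora70 did not.

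Snord118, which as U8 is needed for processing of the large subunit ribosomal RNAs, had 206, 193, 186 and 275 TPM in inflamed KO LECs, against 548, 710.0, 598 and 509 TPM in KO LECs. The groups did not overlap, and the log2 fold change was -1.46 (SE 0.13, limma adjusted p = 1.10e-05, exact permutation p = 0.0286, the smallest possible). Snora81 had 44.2, 62.8, 47.7 and 86.1 TPM in inflamed KO LECs, against 948, 772, 367 and 793 TPM in KO LECs. Every inflamed library was below every steady state one, and the log2 fold change was -3.52 (SE 0.28, limma adjusted p = 5.55e-06). Its host Eif4a2 was at 72.9 ± 5.52 TPM in inflamed KO and 78.5 ± 2.14 TPM in KO LECs (SD, n = 4 each), a log2 difference of -0.11 that did not pass (limma adjusted p = 0.210).

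Snora23 had 8.29, 10.47, 8.94 and 0 TPM in inflamed KO LECs, against 61.5, 87.0, 42.9 and 58.9 TPM in KO LECs. This was 0 to 2 steps against 7 to 20 steps, with a log2 fold change of -3.43 (SE 0.66, limma adjusted p = 0.00119). The host, Ipo7, was at 15.9 ± 1.39 TPM in inflamed KO and 8.48 ± 0.549 TPM in KO LECs (SD, n = 4 each), and its log2 difference of 0.83 had an adjusted p of 7.27e-05 in limma, under the fold threshold and opposite in sign. Snora16a had 6.64, 16.8, 57.2 and 0 TPM in inflamed KO LECs, against 70.2, 139, 147 and 132 TPM in KO LECs, without overlap (log2 fold change -3.65, SE 0.95, limma adjusted p = 0.00723). Its host Snhg12, a long non-coding RNA, was at 12.2 ± 2.55 TPM and 24.3 ± 3.81 TPM in the same order, with a log2 difference of -0.95 just under the fold threshold (limma adjusted p = 4.59e-04).

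Snord67, which in humans guides methylation of the spliceosomal RNA U6, was listed at 0 in 4 of 4 inflamed KO libraries, against 17.6, 17.4, 12.2 and 11.8 TPM in KO LECs. It reached 1 TPM in 4 of the 8 libraries only through the KO group, so its call is a description, and neither a fold nor a p is given. The KO values were 1 or 2 steps each, 6 steps in all, where 1 step was worth 8.70 to 12.2 TPM in KO and 8.30 to 17.9 TPM in inflamed KO libraries. Its host Ckap5, which encodes a microtubule-binding protein, rose to 20.3 ± 2.59 TPM in inflamed KO LECs, against 8.82 ± 1.68 TPM in KO LECs (log2 fold change 1.12, limma adjusted p = 9.00e-05). This was the 1 passing member whose host passed too.

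Snora15, Snora26 and Snora78 fell with overlapping libraries. Snora15, in the chaperonin gene Cct6a, had 0, 0, 17.9 and 10.8 TPM in inflamed KO LECs, against 43.9, 17.4, 24.5 and 23.5 TPM in KO LECs (log2 fold change -2.80, limma adjusted p = 0.0189). Snora26, in Dancr, had 6.15, 16.3, 0 and 0 TPM, against 13.7, 33.3, 19.3 and 26.6 TPM (-2.79, limma adjusted p = 0.0128). Snora78, in Snhg9 and antisense to Rps2, had 16.6, 6.98, 11.9 and 14.3 TPM, against 23.4, 40.6, 40.8 and 15.7 TPM (-1.17, limma adjusted p = 0.00890). The counting is not stated to use strand, so reads of Snora78 and Rps2 and of Snora23 and 1600010M07Rik cannot be told apart.

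Snora7a had 53.1, 50.3, 42.9 and 68.9 TPM in inflamed KO LECs, against 28.1, 13.9, 19.6 and 37.7 TPM in KO LECs, without overlap (log2 fold change 1.16, SE 0.26, limma adjusted p = 0.00297). Snora70 had 86.3, 100.5, 28.6 and 51.6 TPM, against 14.05, 34.8, 29.4 and 0 TPM, with overlap (log2 fold change 2.43, SE 0.96, limma adjusted p = 0.0476). Both hosts encode ribosomal proteins and were lower in inflamed KO LECs without reaching the fold threshold. Rpl32 differed by -0.79 (limma adjusted p = 2.08e-05) and Rpl10 by -0.75 (limma adjusted p = 4.98e-06) on the log2 scale. Snora28 had 212, 235, 200.3 and 224 TPM in inflamed KO LECs, against 155, 139, 206 and 122 TPM in KO LECs, a log2 difference of 0.51 with a limma adjusted p of 0.00768, under the fold threshold.

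Snord104 had 0, 55.8, 47.7 and 14.3 TPM in inflamed KO LECs, against 58.5, 104, 81.6 and 94.2 TPM in KO LECs, without overlap, and narrowly did not pass (-2.55, limma adjusted p = 0.0527). In all, 7 of 40 members did not overlap between inflamed KO and KO libraries, 6 lower and 1 higher, while 54.1% of all genes tested did not overlap. Over the 38 members with a tested host, 9 members passed and 4 of the 9 had a difference of the same sign as the host, and 15 of 38 did so in all. The median log2 difference of the 34 distinct hosts was -0.50, with 1 host higher and 4 lower. Over the 17 members in ribosomal protein genes the median was 0.51.

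**Figure D4:**
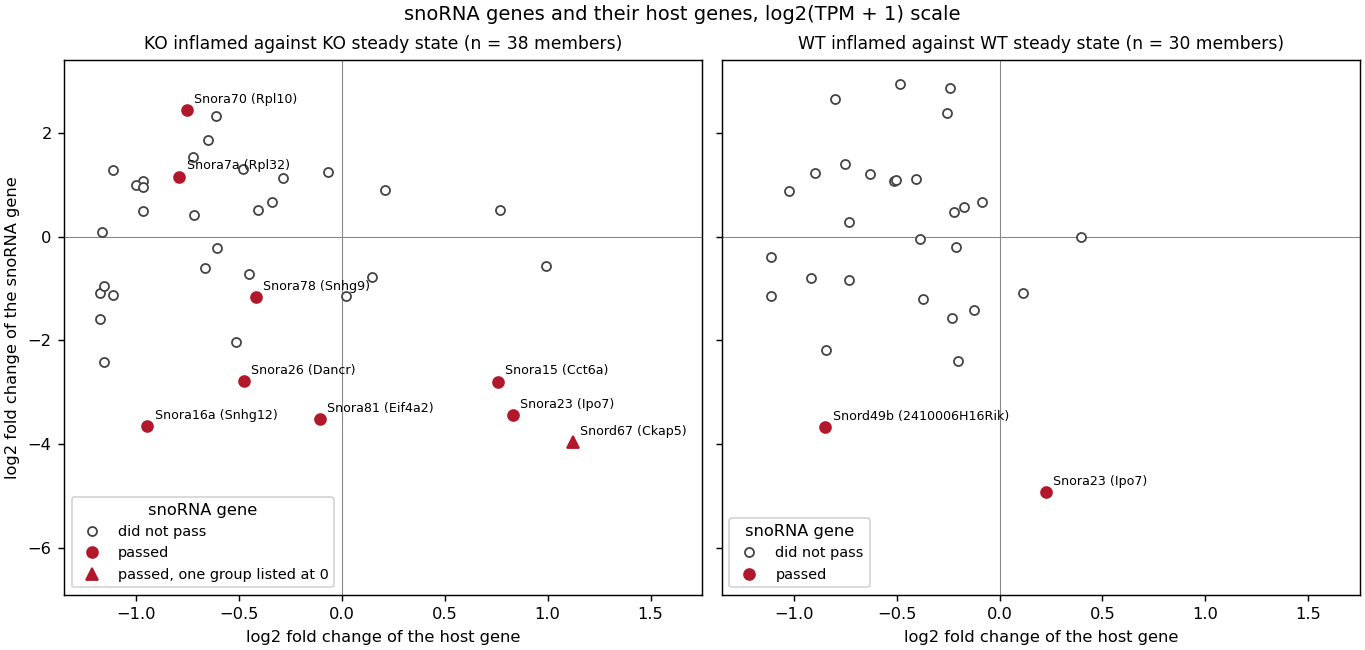
Log2 fold change of each tested member (vertical axis) against that of its host gene (horizontal axis), on the log2(TPM + 1) scale, for inflamed KO against KO LECs (left, 38 members) and inflamed WT against WT LECs (right, 30 members). Filled symbols passed the limma test, and the triangle marks Snord67, which was listed at 0 in inflamed KO LECs, so that its height depends on the pseudocount, as do those of members with single libraries at 0.

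Markers of other cell types moved with this comparison. The T cell markers Cd3e, Cd3g, Cd4 and Cd8a summed to 1.95 to 3.57 TPM in inflamed KO and 9.05 to 17.3 TPM in KO LECs, and 7 myeloid markers to 71.8 to 122.5 and 273 to 416 TPM. Of those tested, 3 of 3 T cell and 3 of 4 myeloid markers fell. Of 4 markers of blood endothelium and high endothelial venules, Glycam1 (-1.13) and Madcam1 (-1.004) also fell on the log2 scale. The other 2, Flt1 and Plvap, had positive differences and did not pass. Of the 4 fibroblastic markers 0 passed, and no marker named here was at 0 in all libraries. The part of these cells in the snoRNA values was not tested.

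Inflamed WT LECs differed from steady state WT LECs in 3 of 32 members tested. Snora23, Snord118 and Snord49b fell and no member rose in the main fit, with 1.97% of all 12031 genes called lower. The median log2 difference was -0.02 over the members and -0.03 over all genes. The same 3 genes were those without overlap between the groups, while 14.1% of all genes did not overlap.

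Snora23 had 0, 6.47, 0 and 0 TPM in inflamed WT LECs, against 42.3, 48.7, 38.0 and 73.4 TPM in WT LECs. Only inflamed WT replicate 2 was above 0, with 2 steps, against 4 to 10 steps in WT libraries, and the log2 fold change was -4.92 (SE 0.63, limma adjusted p = 0.00301). With 3 of 4 inflamed libraries at 0 its size depends on the pseudocount, at -7.43 with 0.1 TPM and -3.14 with 5 TPM. Ipo7 differed by 0.23 on the log2 scale and did not pass. Snord118 had 107, 466, 122 and 88.3 TPM in inflamed WT LECs, against 728, 693, 556 and 752 TPM in WT LECs (log2 fold change -2.15, SE 0.46, limma adjusted p = 0.0273). Inflamed WT replicate 2 had by far the highest of the 4 inflamed values, and it was still below every WT library. Its neighbour Tmem107 differed by 0.02 on the log2 scale and did not pass.

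Snord49b had 0, 8.62, 0 and 0 TPM in inflamed WT LECs, against 28.2, 12.98, 14.5 and 39.2 TPM in WT LECs (log2 fold change -3.67, SE 0.74, limma adjusted p = 0.0222). It was at exactly 1 step in each WT library and at 0 or 1 step in the inflamed ones, so this call rests on 4 steps against 1. The host of Snord49b, 2410006H16Rik, differed by -0.85 on the log2 scale (limma adjusted p = 0.0636), and fell in inflamed KO against KO LECs (-1.16, limma adjusted p = 1.00e-05), where Snord49b did not pass.

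Snora81 had 98.8, 388, 63.4 and 65.4 TPM in inflamed WT LECs, against 169, 623, 499.9 and 235 TPM in WT LECs, and did not pass (-1.56, limma adjusted p = 0.221). Inflamed WT replicate 2 alone lay within the range of the WT libraries. Without it Snord118 fell (-2.68, limma adjusted p = 9.75e-07), and 5 members in all were called lower, with 1052 of all genes called in place of 476. Snora23 and Snord49b were among the 5, but every inflamed WT library left held them at 0. They were then tested only through the WT libraries, so for this setting neither a fold nor a p is given. Of the other 2, Snora81 passed at -2.15 (limma adjusted p = 0.00185) and Snora16a at -3.01 (limma adjusted p = 0.0351). Snora16a had 35.6, 103, 0 and 29.4 TPM in inflamed WT LECs, against 67.7, 101, 95.6 and 70.5 TPM in WT LECs, so inflamed WT replicate 2 lay above every WT library. When any other library of the 8 was left out, Snora23 was the only member called. Neither Snora7a, with 71.2, 41.4, 30.5 and 49.1 TPM in inflamed WT and 16.9, 7.79, 43.5 and 23.5 TPM in WT LECs, nor Snora70, with 47.4, 62.1, 60.9 and 19.6 TPM and 33.9, 7.79, 26.1 and 23.5 TPM, passed here. With array weights, which give libraries unequal weight, both rose (1.61 and 1.32, limma adjusted p = 0.0116 and 0.0470), as did Snord16a (3.29, limma adjusted p = 0.0319), and 6 members fell. More genes were called over all genes too with these weights, as the last section gives. Of those tested, 1 of 3 T cell markers, Cd4, and 1 of 4 myeloid markers, Lyz2, fell in inflamed WT LECs. The T cell markers summed to 0.716 to 9.12 TPM in inflamed WT and 9.83 to 22.1 TPM in WT LECs, and the myeloid markers to 48.0 to 73.3 and 290 to 862 TPM, and their part in these values was not tested.

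**Figure D5:**
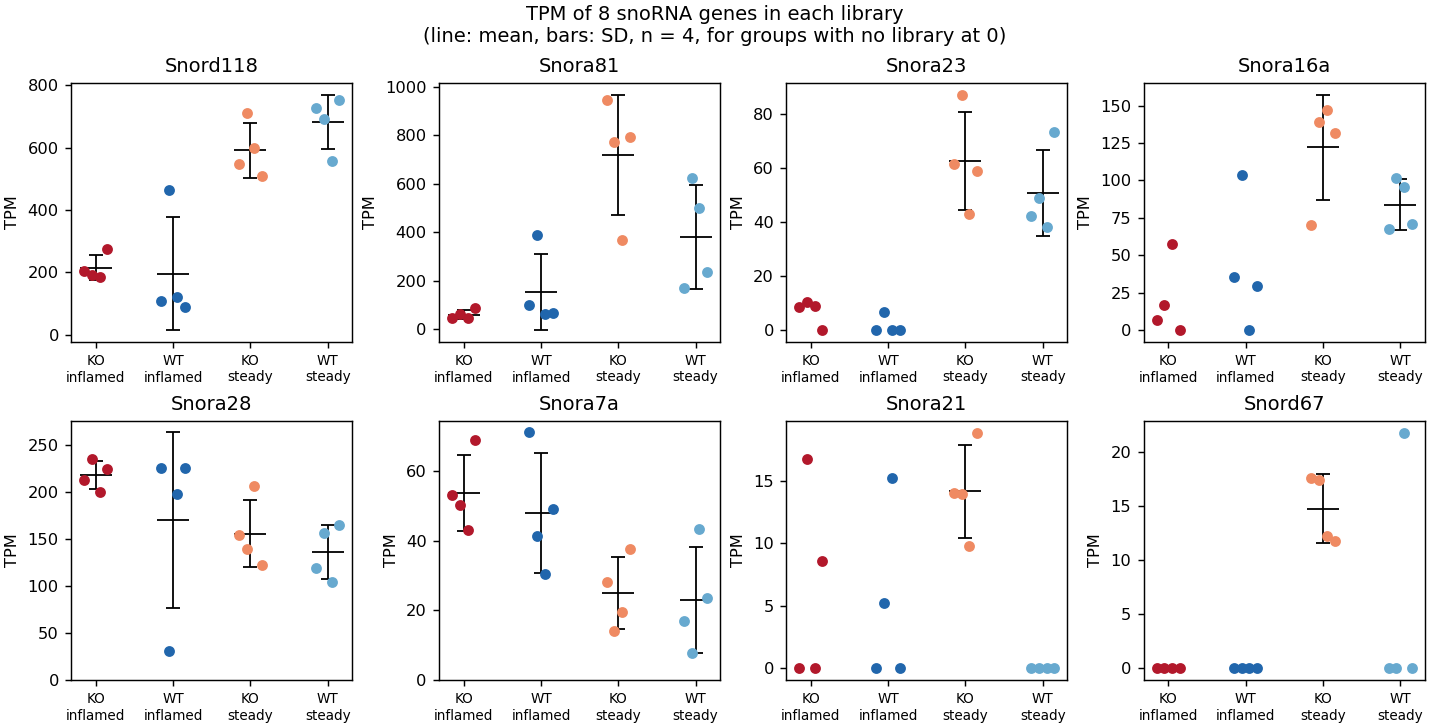
TPM (vertical axis) of 8 snoRNA genes in each library of the 4 groups (points), with the mean and SD (n = 4) for groups without a library at 0. Snord118 and Snora23 fell after inflammation in both genotypes. Snora81 and Snora16a fell in KO and did not pass in WT LECs, and these effects are not shown to differ between the genotypes. Among inflamed libraries, WT replicate 2 is the highest point for Snord118, Snora81 and Snora16a. For Snora16a it lies above every WT steady state library. Snora21 and Snord67 are at 0 in whole groups.

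At steady state, KO LECs differed from WT LECs in 2 of 38 members tested, Snora21 and Snord35b, both higher in KO, with 0.431% of all 12058 genes called higher. The median log2 difference was 0.30 over the members and -0.04 over all genes. Of the 20 Snora genes tested 17 had a positive difference, and of the 17 Snord genes 8 did. The WT libraries with the largest steps and fewest members above 0, replicates 1 and 4, belong to this comparison, and the part of the step size in these differences was not tested.

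Snora21 had 14.05, 13.9, 9.80 and 18.8 TPM in KO LECs and was listed at 0 in 4 of 4 WT libraries. It could be tested only because all 4 KO libraries held it, so its call is a description and no p is given. It held 1 or 2 steps in each KO library, 7 in all, where 1 step was worth 6.96 to 9.80 TPM in KO and 7.79 to 23.5 TPM in WT libraries. Its host Rpl23 was at 751 ± 70.01 TPM in KO and 649 ± 42.05 TPM in WT LECs (SD, n = 4 each) and did not pass. Snord35b had 17.6, 8.70, 36.7 and 23.5 TPM in KO LECs, against 0, 9.73, 0 and 0 TPM in WT LECs (log2 fold change 3.48, SE 0.70, limma adjusted p = 0.0296), that is 8 steps against 1. The libraries of Snord35b overlapped, since the value of WT replicate 2 lay above that of KO replicate 2.

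Snora21 was 1 of 38 members without overlap between KO and WT libraries, while 6.54% of all genes did not overlap. The call of Snord35b depended on single libraries. Snora21 was at 0 in every WT library, so leaving 1 of the 4 out could not change its difference, and its kept call is no support. Without KO replicate 1, 3 or 4 no member passed, and without KO replicate 2 or WT replicate 1 or 4 there was 1. Without WT replicate 3, Snord67 passed and Snord35b did not. Snord67 was then at 0 in every WT library left and tested only through the KO libraries, so that call is a description. Snora21 cannot be tested without a KO library, because it then reaches 1 TPM in 3 libraries only. In the fit over all 16 libraries 0 members passed. The high endothelial venule markers Glycam1 and Madcam1 were higher in KO than in WT LECs (4439 ± 555 TPM against 2080.0 ± 251 TPM, and 842 ± 57.4 TPM against 381 ± 37.3 TPM, SD, n = 4 each), and their part was not tested. Flt1 and Plvap, the other 2 markers of that list, did not pass.

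Inflamed KO LECs did not differ from inflamed WT LECs in any of the 38 members tested by limma, 2 of which had an unadjusted p under 0.05, with 0.316% of all 12030 genes called. Snora78 came closest, with 16.6, 6.98, 11.9 and 14.3 TPM in inflamed KO LECs, against 59.3, 64.7, 38.1 and 32.7 TPM in inflamed WT LECs (-1.89, limma adjusted p = 0.0578, exact permutation p = 0.0286). It was the 1 member without overlap, while 5.19% of all genes did not overlap. Its host Snhg9 was at 99.5, 109.9, 143 and 129 TPM in inflamed KO LECs, against 133, 559, 124 and 116 TPM in inflamed WT LECs. Without inflamed WT replicate 2, Snora78 passed at -1.73 (limma adjusted p = 0.0217) and Snord118 at 1.01 (limma adjusted p = 0.0137).

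The test of the difference between the 2 inflammation effects, KO minus WT, called 0 of 54 members, 4 of which had an unadjusted p under 0.05 in limma, and 0.0% of 12684 genes. The difference was -1.96 on the log2 scale for Snora81, whose mean was lower in inflamed LECs of both genotypes but passed only in KO. For Snora78 it was -1.83, from a log2 difference of -1.17 in KO and 0.67 in WT LECs. Each had a limma adjusted p of 0.668. The effects on Snora81 and Snora78 are therefore not shown to differ between the genotypes. Without inflamed WT replicate 2, Snord118 passed this test at 1.22 (limma adjusted p = 0.0465). Without WT replicate 3, Snord67 passed it too. It was then above 0 in KO libraries only, so that call is a description and no support.

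Patterns of presence against absence were few. A member was counted as on-off where it reached 1 TPM in 4 of 4 libraries of one group and in 0 of 4 of the other. Snora21 was the 1 such member in KO against WT, while 0.34% of all genes showed such a pattern. Snord67 was the 1 such member in inflamed KO against KO, while 1.63% of all genes did. There was no such member in inflamed WT against WT, with 0.715% of all genes, or in inflamed KO against inflamed WT, with 0.249%. Both patterns set 1 or 2 steps against 0.

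With at least 3 libraries of one group against at most 1 of the other, 5 members were on in KO against WT, Snora21, Snora75, Snord35b, Snord49a and Snord67, and 0 were on in WT only, against 2.21% of all genes. In inflamed WT against WT, Snord100 and Snord16a were on in inflamed WT and Snora23, Snora26 and Snord49b in WT, against 4.18% of all genes. In inflamed KO against KO, Snord67 and Snord82 were on in KO, against 4.86%. In inflamed KO against inflamed WT, Snora23, Snora30 and Snord58b were on in inflamed KO, against 1.92%. Snord67, with 0, 0, 0 and 0 TPM in inflamed WT and 0, 0, 21.7 and 0 TPM in WT LECs, was at 0 in all 8 inflamed libraries. Snora23 was above 0 in all 8 steady state libraries and in 4 of 8 inflamed ones.

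Of 8 box C/D protein genes measured, among them fibrillarin (Fbl) and Nop56, 0 passed in any comparison, and so it was for 5 tested H/ACA protein genes with dyskerin (Dkc1), 5 assembly chaperones, 9 genes of Cajal bodies, capping and trafficking, 9 genes of 3' end trimming and decay, and 22 genes of ribosome assembly and RNA polymerase I. In inflamed KO against KO LECs their median log2 differences were 0.17, 0.16, 0.34, 0.22, 0.41 and 0.43 in this order, beside 0.24 over all genes. Dkc1 was at 10.1 ± 0.708 TPM in inflamed KO and 4.81 ± 0.735 TPM in KO LECs (log2 difference 0.94), Nop56 at 153 ± 6.33 and 88.5 ± 12.3 TPM (0.79), and Fbl at 86.5 ± 1.46 and 80.7 ± 3.21 TPM (0.10), none of them past the fold threshold (SD, n = 4 each).

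Of 19 tested host genes with no known protein, 15 had a negative difference in inflamed KO against KO LECs, with a median of -0.36, and 1 passed. That gene, Zfas1, the host of Snord12, fell to 25.3 ± 1.505 TPM in inflamed KO LECs, against 60.4 ± 5.20 TPM in KO LECs (log2 fold change -1.22, limma adjusted p = 2.56e-06). Gas5, the host of Snord47, differed by -0.61 on the log2 scale and did not reach the fold threshold. Among 76 tested genes of other small non-coding RNAs, microRNA genes included, 4 rose and 11 fell in inflamed KO against KO LECs, where 6.41% of all genes were called higher and 3.06% lower. Among those that fell were Rnu11 (-1.94) and Rnu12 (-1.94), the minor spliceosome RNAs, and Rmrp (-1.81), the RNA of RNase MRP, which also cuts ribosomal RNA precursors. In inflamed WT against WT LECs 1 of 63 such genes fell, where 1.97% of all genes were called lower, and none of Rnu11 (-0.25), Rnu12 (0.40) and Rmrp (-0.84) passed. In KO against WT LECs, Rpph1, the RNA of RNase P, fell to 7.30 ± 0.977 TPM, against 16.5 ± 1.68 TPM (log2 fold change -1.08, limma adjusted p = 0.00109). The nuclear long non-coding RNA Neat1 rose in inflamed KO against KO LECs (1.12, limma adjusted p = 7.64e-05), and Malat1 differed by -0.49, under the fold threshold.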

How the data were processed

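RNA of sorted LECs was sequenced as single 50-base reads, and the authors deposited TPM values of each gene and library in 3 tables, aligned to mm10. For this the paper names STAR and salmon, while STAR 2.5.2b, Subread and limma stand in the submitters' processing notes. The tables repeat 8 columns, of which 0 values differ, and 26 names turned into dates were dropped. The authors' tables of fold changes and adjusted p-values hold their own comparisons and were not used. Values were tested as log2(TPM + 1) with limma 3.58.1 (lmFit, eBayes with trend) in R 4.3.3, without a replicate term. On this scale the fold change of a low gene is understated. A check on simulated data changed only genes well above 1 TPM, with normal spread on the log scale. It therefore does not cover members with many values at 0 or with few steps. TPM keep no depth, so precision rests on 4 libraries per group. Whether libraries came from separate experiments is not given, so p-values measure the spread between libraries.

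Positions of the printed sequences are those of GENCODE M21, and hosts were GENCODE genes that span a member, placed by RefSeq on GRCm38, on the same strand. Array weights let limma weigh down libraries that vary more. The members and lists were chosen with earlier results of these data known. Genes were named by rule: members that passed or were on-off, the 6 highest, the 5 most and 5 least even of at least 5 TPM, scaRNAs, the genes at the threshold, their hosts and up to 4 genes of each list. Genes outside the rule, which are named in the looser on-off count, in the counts of steps and shared stretches, and as Malat1, Gas5, Tmem107 and the minor spliceosome RNAs where the rule does not take them, were picked with their values already in view. The alternatives tried were a pseudocount of 0.1 or 5 TPM, a filter of 5 TPM or none, 3 rescalings, eBayes without trend, array weights, a replicate block, no fold threshold, all 16 libraries, and leaving out each library. Rescaling by the median ratio without inflamed WT replicate 2, leaving out each library for sums and on-off counts, and the spread without inflamed WT replicate 2, were added after the data were seen. One marker list and the host of 1 member are not reported here.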

Additional observations from a re-analysis of the deposited data

Results flagged for a closer look

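In groups of 4, a library was picked out whose gap to its nearest neighbour, divided by the range of the group, exceeded Dixon's critical value. Chance does this in about 1 of 20 groups, and far more often where 3 of 4 values are 0, since the ratio is then 1 by construction. Only the 23 named members and 3 totals per library (summed level, members above 0, step) were examined, in 101 groups with any spread. Of these, 15 had such a library, 11 of them with 3 libraries at 0. The 4 without a 0 were Snord118 (466 TPM), Snora81 (388 TPM) and Snora28 (31.0 TPM) in inflamed WT replicate 2, and Snord49b (114 TPM) in KO replicate 3.

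Among the named members, single libraries above 0 in inflamed WT LECs were replicate 2 for Snora23 (6.47 TPM) and Snord49b (8.62 TPM), replicate 1 for Snora26 (23.2 TPM) and Snord12 (39.5 TPM), and replicate 3 for Snord1a (17.6 TPM). In the other groups they were inflamed KO replicate 2 for Snord1a (24.5 TPM), KO replicate 3 for Snord12 (16.3 TPM), KO replicate 4 for Snord1a (45.3 TPM), WT replicate 1 for Snord1a (20.9 TPM), WT replicate 2 for Snord35b (9.73 TPM) and WT replicate 3 for Snord67 (21.7 TPM).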

How the results depend on the processing

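Each call of a member was recomputed under 16 to 21 alternatives, and none changed its direction. In these counts, the alternative without a fold threshold uses the main fit, so every call passes it by construction. Snora81, Snord118, Snora23 and Snora16a in inflamed KO against KO and Snora23 in inflamed WT against WT passed under every alternative run. Snord35b passed in 9 of 20 (limma adjusted p 0.0246 to 0.453 where WT replicate 2 was kept). Snora70 passed in 10 of 20 (limma adjusted p 0.0199 to 0.124), Snord118 in 12 of 21 (1.42e-07 to 0.0976) and Snord49b in 13 of 21 (1.96e-06 to 0.0859) in inflamed WT against WT. In inflamed KO against KO, Snora78 passed in 15 of 20 (0.00206 to 0.0592), Snora7a in 16 of 20 (0.000408 to 0.0521), Snora15 in 18 (0.00306 to 0.135) and Snora26 in 19 (0.000787 to 0.107). Snora21 and Snord67 can be tested only while all libraries of the group that holds them are kept, so their alternatives are no support. The passes of Snora23 and Snord49b in inflamed WT against WT without inflamed WT replicate 2 are likewise no support. Nor is the pass of Snord35b in KO against WT without WT replicate 2, where every WT library left held it at 0.

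In KO against WT the count of 2 was 1 without a filter or without trend, 0 in the fit over all 16 libraries, and 0 to 2 when a library was left out. In inflamed WT against WT the count of 3 was 1 without a filter, 9 with array weights (6 lower and 3 higher), 5 with rescaling and without inflamed WT replicate 2, and 1 to 5 when a library was left out. In inflamed KO against KO the count of 10 was 5 in the fit over all 16 libraries and 7 to 14 when a library was left out. In inflamed KO against inflamed WT the count of 0 was 1 with a pseudocount of 5 TPM, array weights, or rescaling without inflamed WT replicate 2, and 0 to 2 when a library was left out. The test between the inflammation effects gave 1 with array weights and 0 to 1 when a library was left out.

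With a replicate block, 2, 3, 14, 0 and 0 members passed in KO against WT, inflamed WT against WT, inflamed KO against KO, inflamed KO against inflamed WT, and the interaction. Same-numbered libraries did not deviate together (0 of 16 pairs above 0.1), but such correlations cannot show whether the numbers pair samples. In KO against WT the 2 were Snora21 and Snora31 with the block, and Snora21 and Snord67 with array weights, in place of Snora21 and Snord35b. On-off counts were 5, 5, 2 and 3 in the first 4 comparisons with 3 of 4 libraries against 1, and 1 to 2, 0 to 2, 1 to 2 and 0 to 1 when a library was left out. Over all genes, calls in inflamed WT against WT were 476, but 1085 with array weights, 1052 without inflamed WT replicate 2, 1002 with rescaling as well, 207 to 281 without any other library, 265 with the block, 262 with a pseudocount of 5 TPM and 317 with a filter of 5 TPM. They were 99 in KO against WT, but 218 without the fold threshold and 45 with a pseudocount of 5 TPM, and 1152 in inflamed KO against KO, but 7330 and 539 under these settings. In inflamed KO against inflamed WT they were 38, but 89 with array weights, 78 over all 16 libraries, 20 with the block, 19 with a filter of 5 TPM and 9 to 78 when a library was left out. The median spread was 2.93 with a pseudocount of 0.1 TPM and 0.97 with 5 TPM. Without Snord118 the summed level was 1172 TPM in inflamed KO, 2028 TPM in KO and 1458 TPM in WT LECs. Rescaling by the median ratio gave a sum of 1706 ± 1076 TPM in inflamed WT LECs (SD, n = 4). Depth is unknown.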
